A study of Caenorhabditis elegans with 91 samples.

Results

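The 10 genes glp-1, fbf-1, fbf-2, gld-1, gld-2, gld-3, mex-3, mex-5, mex-6 and cgh-1 of Caenorhabditis elegans encode a germline receptor and RNA regulators of germ cells. They were taken by name from the gene tables, in which they made up 10 of 30199 genes counted for mRNA and 10 of 21965 genes counted for small RNAs. Every one of the 10 was counted in both kinds of table, and every one passed the filter on low counts in each comparison below. The series measured small RNAs in 64 libraries and mRNA in 27 libraries, from isolated gonads, isolated neurons or whole one-day adults. It asked how RDE-4, which binds long double-stranded RNA for Dicer, acts when it is supplied to neurons alone, and what remains in descendants that lack it.

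Germ cells of the adult hermaphrodite gonad divide at its distal end, enter meiosis as they move away from it, and become oocytes at the proximal end. GLP-1 is the Notch family receptor that keeps distal germ cells dividing. FBF-1 and FBF-2 are close paralogs of the Pumilio (PUF) family that bind mRNAs and keep those of meiotic entry regulators silent. GLD-1, an RNA-binding protein with a KH domain, and GLD-2, a cytoplasmic poly(A) polymerase that acts with its partner GLD-3, promote entry into meiosis, and GLD-1 also holds oocyte mRNAs untranslated. MEX-3, a KH domain protein, and the paired CCCH zinc finger proteins MEX-5 and MEX-6 act in oocytes and the early embryo, where MEX-5 and MEX-6 set up differences between the anterior and the posterior. CGH-1 is a DEAD-box helicase of germ granules and of repressed mRNPs. Small RNAs antisense to germline mRNAs are abundant in this species, so each gene has both an mRNA level and a small RNA level.

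The gonad groups were F3 animals, labelled rde-4 (-) and descended from a heterozygote of strain BFF16; pigSi3 animals, which carry rde-4(ne299) and a single-copy insertion of cb-unc-119(+) with Psng-1::rde-4:SL2:yfp; pigSi3 animals that also carry sid-1(qt9), an allele of the gene for a double-stranded RNA channel; sid-1 rde-4 double mutants; and rde-4(ne299) mutants. The labels of the pigSi3 sid-1 mRNA libraries name Psng-1::rde-4 without the insertion's name. Whole animals were wild-type N2, pigSi3 animals and their F3, carriers (P0) of the extrachromosomal arrays pigEx9 (Psng-1::rde-4 with Pmyo-3::Mcherry) or pigEx10 (Prgef-1::rde-4 with Punc-122::gfp) in rde-4(ne299), the F1 and F3 descendants of each array, and rde-4(ne299) mutants. Isolated neurons were WT, pigSi3 or rde-4(ne299), all with the red nuclear marker otIs356 driven by rab-3p. The sng-1 and rgef-1 promoters are both pan-neuronal. The animals were fed OP-50 and kept at 20 °C, apart from 3 N2 and 3 rde-4 libraries of whole animals at 25 °C. Each gonad mRNA group had 3 libraries, and gonad small RNA groups had 2, except rde-4 with 3.

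Counts in genes ran between 2746062 and 36765116 per gonad mRNA library, and between 1841973 (F3 replicate 1) and 49953667 per gonad small RNA library. Neuron libraries held 5972135 to 15765852 mRNA counts and 735328 to 2530023 small RNA counts, and whole-animal libraries 1792 to 31077625. Levels are counts scaled to a common library size (CPM, with TMM factors over the libraries fitted together), and they are not compared between genes because transcript lengths were not used. rde-4 mRNA averaged 299.6 ± 15.0 CPM in pigSi3 neurons and 2.84 ± 0.891 CPM in rde-4 neurons (SD, n = 4 each). In gonads it averaged 24.6 ± 3.85 CPM in F3 animals, 32.7 ± 3.04 CPM in pigSi3 animals and 31.5 ± 6.91 CPM in rde-4 mutants (SD, n = 3 each), so a neuronal excess was not seen there. sid-1 mRNA in gonads was lower in sid-1 rde-4 than in rde-4 animals (log2 -1.02, adjusted p = 0.00231, edgeR). The labels do not say whether the libraries of a group came from separate cultures, so p-values measure the spread between libraries.

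In gonads of the F3 animals, mRNAs of the FBF pair, gld-2, cgh-1 and mex-5 were lower than in rde-4 gonads, while glp-1 overlapped with the rde-4 libraries and mex-3 had 2 of 3 F3 libraries above them. Of the 10 genes, 5 fell at an adjusted p below 0.05 (edgeR's quasi-likelihood test, adjusted over all 10569 genes tested) and 0 rose. At an unadjusted p below 0.05 there were 7 of the 10, and 38.3% of all genes. Of all genes tested 28.0% passed in this comparison, and 14.4% of all genes passed as lower in F3. The median log2 change of the 10 genes was -0.48, beside 0.005 for all genes, and 9 of the 10 values were negative. With library totals in place of TMM scaling the median of all genes moved by 0.18 and the passing genes were 2072 higher and 1052 lower in F3, against 1434 higher and 1527 lower with TMM. The median of the 10 genes was then -0.30, and glp-1 and mex-6 turned to 0.13 and 0.01. In bulk gonads, fewer germ cells of a type and less RNA per cell cannot be told apart. The sources used here do not say whether the F3 libraries were prepared together with the others, so generation and preparation cannot be told apart either.

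fbf-1 mRNA was counted at 169, 132 and 106 CPM in F3 gonads, against 530.3, 530.6 and 502.5 CPM in rde-4 gonads. fbf-2 mRNA was counted at 123, 91.4 and 78.4 CPM in F3 gonads, against 356, 378 and 362 CPM in rde-4 gonads. All 3 F3 libraries lay below every rde-4 library for each of the pair, and the groups did not come near to overlapping. fbf-1 fell by 1.94 on the log2 scale (SE 0.221, 95% interval -2.42 to -1.47, adjusted p = 7.84e-05), to 0.261 of the rde-4 level. fbf-2 fell by 1.91 (SE 0.232, 95% interval -2.41 to -1.41, adjusted p = 0.000122), to 0.267. Counted from the lowest log2 value, they ranked 116 and 128 among the 10569 genes. The ratio of fbf-1 to fbf-2 counts was 1.36 to 1.44 in F3 gonads and 1.39 to 1.49 in rde-4 gonads, so the pair moved by nearly the same factor. The coding sequences of these paralogs are alike and every library listed 0 reads with more than 1 alignment, so reads that fit either gene could be dropped or assigned to 1 of them, and the sources used here do not say how they were handled. glp-1, the receptor upstream of the pair, had 151.5, 227 and 185 CPM in F3 gonads, against 223.5, 151 and 208 CPM in rde-4 gonads. Those groups overlapped, with a log2 difference of -0.05 (95% interval -0.47 to 0.36, adjusted p = 0.882).

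Among the regulators of meiotic entry, gld-2 mRNA was counted at 111.5, 108 and 127 CPM in F3 gonads, against 289, 183 and 252 CPM in rde-4 gonads. The F3 libraries were close to each other and below all rde-4 libraries, which were spread more widely. gld-2 fell by 1.06 on the log2 scale (SE 0.205, adjusted p = 0.00186). gld-3, which encodes the partner of GLD-2, had 213, 248 and 226 CPM in F3 gonads, against 287, 228 and 276 CPM in rde-4 gonads. Its groups overlapped and its log2 difference was -0.20 (95% interval -0.46 to 0.05, adjusted p = 0.236). gld-1, a translational repressor and itself a target of FBF, had 244, 323 and 271 CPM in F3 gonads, against 404, 368 and 374 CPM in rde-4 gonads. The gld-1 groups did not overlap, yet the log2 difference of -0.45 (95% interval -0.81 to -0.10) missed the threshold at an adjusted p of 0.0547. gld-1 passed in DESeq2 (adjusted p = 0.0265), in a fit of the F3 and rde-4 libraries alone (0.0276) and with replicate number as a block (0.0446). With gld-1 counted, 6 of the 10 genes had all F3 libraries below all rde-4 libraries, as did 21.5% of all genes tested.

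**Figure D1:**
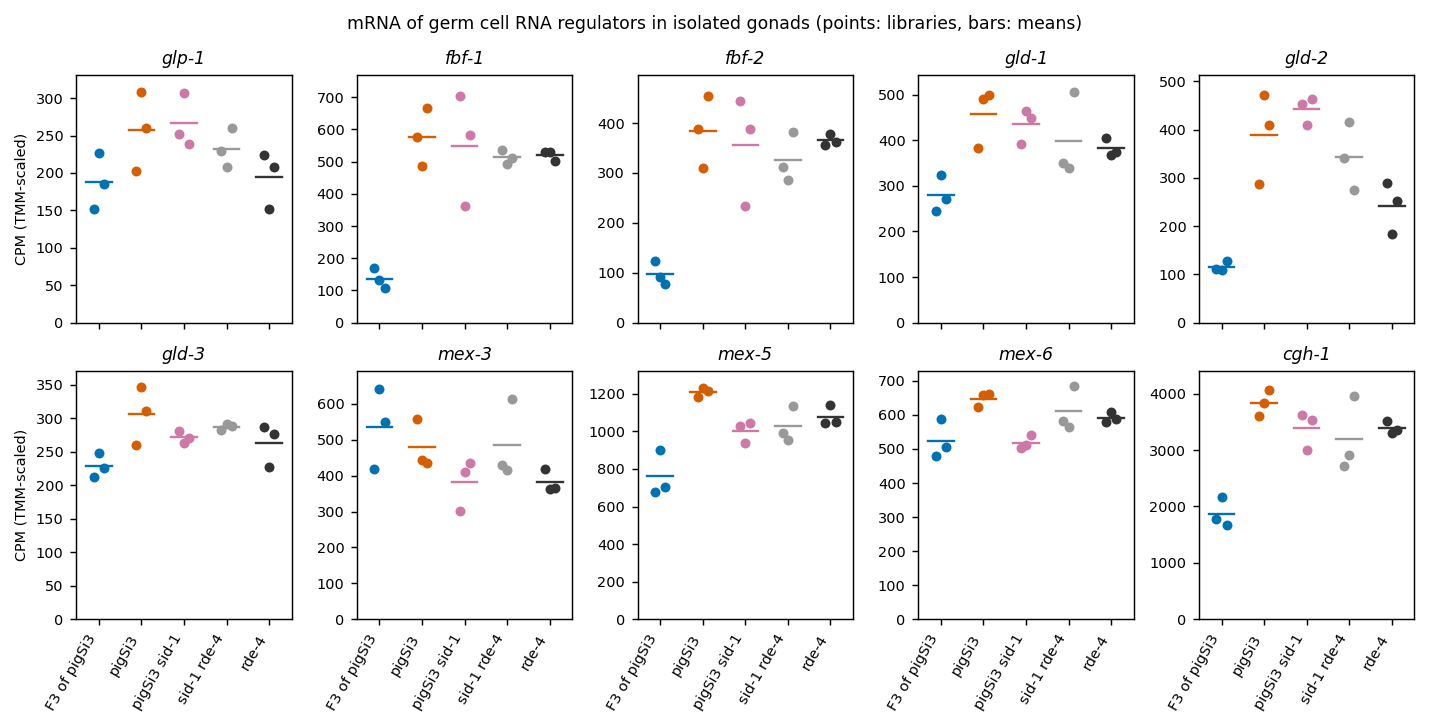
mRNA level of each of the 10 genes in single gonad libraries (points, CPM; bars are means of 3 libraries), for F3 of pigSi3, pigSi3, pigSi3 sid-1, sid-1 rde-4 and rde-4 animals from left to right. For fbf-1 the F3 libraries sit between 106 and 169 CPM while the lowest library of any other group is at 363 CPM, and mex-3 is the gene whose F3 mean is the highest of the 5 groups.

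The mex genes did not share a direction. mex-5 mRNA was counted at 677, 901 and 704.5 CPM in F3 gonads, against 1047, 1140.0 and 1049 CPM in rde-4 gonads. All F3 libraries were lower, and mex-5 fell by 0.50 on the log2 scale (SE 0.126, 95% interval -0.77 to -0.23, adjusted p = 0.00872). Without F3 replicate 1 the change was -0.38 (adjusted p = 0.0711), without F3 replicate 3 it was -0.45 (adjusted p = 0.0502), and with library totals in place of TMM scaling it was -0.32 (adjusted p = 0.0522). mex-6, the paralog of mex-5, had 480, 588 and 506 CPM in F3 gonads, against 579.7, 607 and 588 CPM in rde-4 gonads. These groups overlapped (log2 -0.17, 95% interval -0.41 to 0.06, adjusted p = 0.269), and the ratio of mex-5 to mex-6 counts was 1.39 to 1.53 in F3 gonads and 1.78 to 1.88 in rde-4 gonads. mex-3 had 417.5, 642 and 551 CPM in F3 gonads, against 418, 363 and 366 CPM in rde-4 gonads. F3 replicate 1 stood just inside the rde-4 range and the others above it, with a log2 difference of 0.49 (95% interval 0.07 to 0.91, adjusted p = 0.0806). Without F3 replicate 1 mex-3 passed (0.69, adjusted p = 0.024), as it did with library totals (0.67, adjusted p = 0.0263).

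A ratio within a library does not depend on the scaling. The ratio of fbf-1 to mex-3 counts was 0.193 to 0.405 in F3 gonads and 1.27 to 1.46 in rde-4 gonads, and that of fbf-2 to mex-3 was 0.142 to 0.294 in F3 gonads and 0.852 to 1.04 in rde-4 gonads. These show unequal change, and do not say which gene of a ratio moved.

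cgh-1 mRNA, for the DEAD-box helicase, was counted at 1774, 2174 and 1676 CPM in F3 gonads, against 3519, 3309 and 3350.0 CPM in rde-4 gonads. The F3 libraries were all lower, by 0.86 on the log2 scale (SE 0.161, 95% interval -1.20 to -0.51, adjusted p = 0.0016). fbf-1, fbf-2, gld-2 and cgh-1 passed in all 12 alternatives computed, over which the log2 change of fbf-1 ranged between -2.09 and -1.76 and that of gld-2 between -1.23 and -0.87.

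Of the genes that act beside these 10, some passed in F3 gonads as well, in a comparison in which 28.0% of all genes passed and 14.4% were lower. Of 25 other regulators of germline stem cells and meiotic entry, 8 fell and 0 rose. tra-2, a sex determination gene and an FBF and GLD-1 target, averaged 74.8 ± 4.03 CPM in F3 and 180 ± 9.31 CPM in rde-4 gonads (SD, n = 3 each; log2 -1.26, adjusted p = 3.93e-05). sygl-1, a target of GLP-1 signalling in germline stem cells, averaged 222 ± 45.7 CPM in F3 and 441.5 ± 44.3 CPM in rde-4 gonads (SD, n = 3 each; log2 -0.99, adjusted p = 0.00145). Among 18 other RNA-binding proteins and regulators of oocytes and embryos, 8 fell and 2 rose. The TRIM-NHL protein gene lin-41 averaged 201 ± 46.6 CPM in F3 and 537 ± 11.9 CPM in rde-4 gonads (log2 -1.42, adjusted p = 0.000233), and oma-1, for a zinc finger protein of oocytes, changed by -0.56 (adjusted p = 0.00238). Among 26 other genes of translational repression and mRNA decay complexes, 6 fell and 3 rose. pab-1, for the poly(A) binding protein, averaged 2088 ± 486 CPM in F3 and 11760 ± 873 CPM in rde-4 gonads (log2 -2.49, adjusted p = 6.35e-05), while lsm-1 rose by 0.98 (adjusted p = 0.000774). Of 21 other genes known as targets of GLD-1 or FBF, 8 fell and 2 rose, among the lower ones lip-1 (log2 -1.42) and the yolk receptor gene rme-2 (log2 -2.03). The medians of the 4 lists, with the 10 genes where they belong, lay between -0.32 and -0.21, beside 0.005 for all genes. The lists share genes, tra-2 and lin-41 among them, and rme-2 is also an oocyte marker, so their counts are not independent. The lists were not tested as sets.

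Markers of germ cells, intestine and muscle also included genes that were lower in F3, to be read beside the same 14.4% of all genes. Summed over 15 germline markers, mRNA came to 3610 to 4171 CPM in F3 gonads and 7301 to 7801 CPM in rde-4 gonads, with 10 of the 15 lower and 1 higher in F3. Summed over 9 oocyte markers it came to 15030 to 18740 CPM in F3 and 23560 to 26500 CPM in rde-4 gonads, with 3 of 9 lower. Intestine markers came to 616 to 2364 CPM in F3 and 3597 to 7729 CPM in rde-4 gonads, with 6 of 11 tested lower. Muscle markers came to 191 to 382 CPM in F3 and 365 to 690 CPM in rde-4 gonads, with 4 of 10 lower, among them the myosin gene unc-54 (log2 -2.23) and the paramyosin gene unc-15 (log2 -1.90). Somatic gonad markers came to 264 to 303 CPM in F3 and 233 to 252 CPM in rde-4 gonads, with 1 of 8 tested higher. Sperm markers came to 599 to 1248 CPM in F3 and 151 to 573 CPM in rde-4 gonads. Of 13 sperm markers tested, 0 passed as higher and 1, spe-41, was lower (log2 -1.89), against the direction of the sum. Neuron markers came to 174 to 207 CPM in F3 and 167 to 192 CPM in rde-4 gonads, with 4 of 12 tested lower, ida-1, egl-21 and egl-3 among them (log2 -2.94, -1.88 and -1.86), and snb-1 higher (log2 0.59). Hypodermis markers came to 2082 to 5412 CPM in F3 and 2386 to 6097 CPM in rde-4 gonads, and 0 of 4 tested passed. No germline, oocyte or somatic gonad marker was at 0 in every library of either group. The part of these shifts in the values of the 10 genes was not tested.

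Set against pigSi3 gonads, with which the F3 animals share their ancestry, 8 of the 10 genes were lower in F3 and 0 higher, with 32.1% of all genes tested passing and 16.6% lower. This comparison uses the same F3 libraries as the one above. gld-2 had 111.5, 108 and 127 CPM in F3 gonads, against 286, 471 and 409 CPM in pigSi3 gonads, a fall of 1.75 on the log2 scale (SE 0.208, adjusted p = 5.89e-05). Every pigSi3 library was above every F3 library. fbf-1 fell by 2.08 (adjusted p = 2.92e-05) with 575.0, 486 and 667 CPM in the pigSi3 gonads, and fbf-2 fell by 1.98 (adjusted p = 5.64e-05) with 387, 311 and 455 CPM there. cgh-1 fell by 1.03 (adjusted p = 0.000413), gld-1 by 0.71 (adjusted p = 0.00483) and mex-5 by 0.67 (adjusted p = 0.00137). gld-3 (-0.42, adjusted p = 0.0161) and mex-6 (-0.31, adjusted p = 0.0468) passed in only 5 and 2 of 11 alternatives, and the replicate numbers did not meet the cutoff for pairing. glp-1 (-0.45, adjusted p = 0.0901) and mex-3 (0.16, adjusted p = 0.565) did not pass. glp-1 passed without pigSi3 replicate 1 (-0.53, adjusted p = 0.0481). The median of the 10 genes was -0.69, beside 0.08 for all genes. With library totals the median of all genes moved by 0.22, the passing genes were 2480 higher and 1155 lower in F3 (1633 higher and 1755 lower with TMM), and the median of the 10 genes was -0.47.

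Restoring rde-4 to neurons gave no change that passed for these mRNAs in gonads. In pigSi3 against rde-4 gonads 0 of the 10 genes passed in edgeR and 0 in DESeq2, and 0.483% of all genes passed. At an unadjusted p below 0.05 there was 1 of the 10, and 6.34% of all genes. All 10 log2 values were above 0, between 0.07 and 0.69, with a median of 0.20 beside 0.01 for all genes. The largest was that of gld-2, with 286, 471 and 409 CPM in pigSi3 gonads, against 289, 183 and 252 CPM in rde-4 gonads. The lowest pigSi3 library lay within the rde-4 range, and the log2 difference was 0.69 (95% interval 0.26 to 1.12, adjusted p = 0.275). mex-3, mex-5, mex-6 and cgh-1 had all pigSi3 libraries above all rde-4 libraries, with log2 differences of 0.13 to 0.33, as did 5.01% of all genes. These 4 did not pass.

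Loss of sid-1 likewise left these mRNAs without a passing difference. In sid-1 rde-4 against rde-4 gonads 0 of the 10 passed in edgeR or DESeq2 (1 unadjusted), beside 0.388% of all genes (10.8% unadjusted). The values of the 10 ran between -0.16 and 0.51, the highest again being gld-2 (adjusted p = 0.417). In pigSi3 sid-1 against sid-1 rde-4 gonads 0 passed in either tool (1 unadjusted), beside 0.123% of all genes (15.3% unadjusted). The median of the 10 was 0.09. gld-3 and mex-6 had all pigSi3 sid-1 libraries below all sid-1 rde-4 libraries, as did 8.26% of all genes, at log2 differences of -0.08 and -0.24. The difference between the pigSi3 effects with and without sid-1 was tested directly. In edgeR or DESeq2 it passed for 0 of the 10 genes (2 unadjusted), beside 0.416% of all genes (13.7% unadjusted). It was largest for mex-3 (-0.67, adjusted p = 0.313), with 301, 411 and 436 CPM in pigSi3 sid-1 gonads, against 430.3, 415 and 615 CPM in sid-1 rde-4 gonads. Those groups overlapped.

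**Figure D2:**
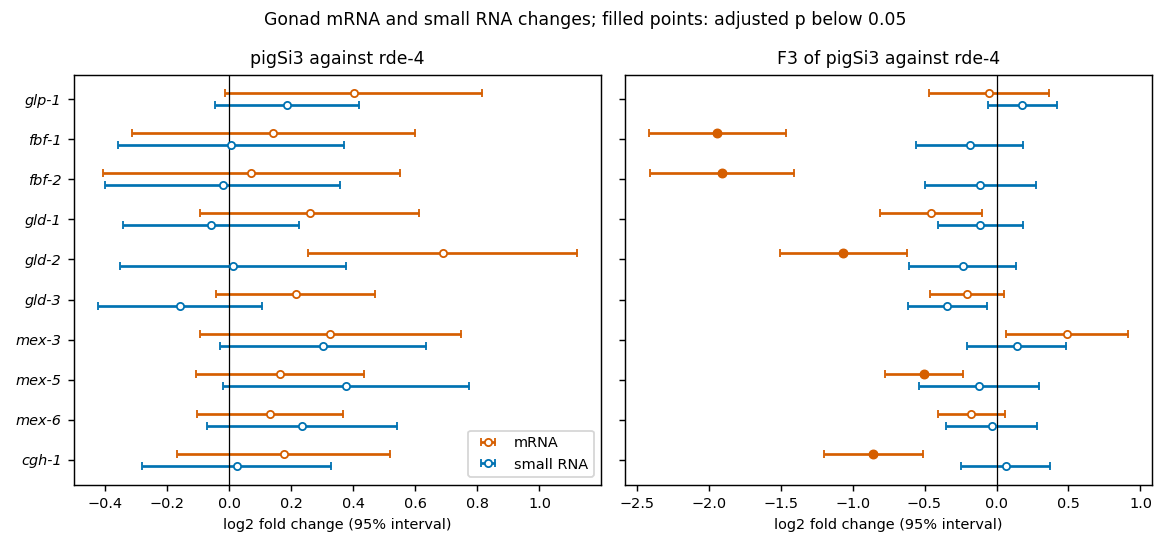
log2 change of mRNA (orange) and of small RNA (blue) for each of the 10 genes in gonads, pigSi3 over rde-4 in the left panel and F3 of pigSi3 over rde-4 in the right one, with 95% intervals as bars and axes of different range; filled points passed an adjusted p of 0.05. The filled points are the F3 mRNA values of fbf-1, fbf-2, gld-2, mex-5 and cgh-1, and all small RNA points lie between -0.34 and 0.38.

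The small RNAs counted on the same genes gave no passing change in the F3 gonads. In F3 against rde-4 gonads 0.165% of the 11517 genes tested passed for small RNA (22% unadjusted). Of the 10 genes, 0 passed in edgeR or DESeq2 (1 unadjusted). Their log2 values ran between -0.34 and 0.18, with a median of -0.11. With library totals the median of all genes moved by -0.19 and that of the 10 genes was -0.27, with cgh-1 and mex-3 turning to -0.09 and -0.03. For fbf-1, small RNA came to 202 and 149 CPM in F3 gonads, against 197, 192.5 and 204 CPM in rde-4 gonads. For fbf-2 it came to 238 and 177 CPM in F3 gonads, against 210.0, 225 and 233 CPM in rde-4 gonads. In each case 1 F3 library lay within or above the rde-4 range and the other below it. The log2 differences were -0.19 for fbf-1 (95% interval -0.56 to 0.19) and -0.11 for fbf-2 (95% interval -0.50 to 0.27), so a fall of the size seen in their mRNA lies outside these intervals. cgh-1 small RNA came to 190.2 and 146 CPM in F3 gonads, against 162, 157.5 and 160 CPM in rde-4 gonads, with a log2 difference of 0.07 (95% interval -0.24 to 0.37). gld-2 small RNA came to 214 and 140.3 CPM in F3 gonads, against 208.5, 220 and 191 CPM in rde-4 gonads (log2 -0.24, 95% interval -0.61 to 0.14). gld-2 thus overlapped too, with 1 F3 library inside the rde-4 range and the other below it. mex-5 small RNA came to 110 and 65.8 CPM in F3 gonads, against 98.3, 96.2 and 83.6 CPM in rde-4 gonads. Of its F3 libraries 1 lay above the rde-4 range and the other below it.

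gld-3 and glp-1 were the genes whose small RNA groups did not overlap in that comparison. gld-3 had 90.4 and 73.3 CPM in F3 gonads, against 103, 102 and 103 CPM in rde-4 gonads, where all 3 libraries were nearly equal. Its difference of -0.34 had an adjusted p of 0.163, and 16.2% of all genes had F3 libraries that were all lower. glp-1 had 139 and 150.3 CPM in F3 gonads, against 133, 123 and 128 CPM in rde-4 gonads (log2 0.18, adjusted p = 0.331), and 14.2% of all genes had F3 libraries that were all higher. Leaving out either F3 library leaves a single one, which is assumed to vary like the other groups because its own spread cannot be estimated. Without F3 replicate 1, the shallowest gonad library, the log2 differences were -0.56 for gld-2, -0.49 for gld-3 and -0.50 for mex-5. The other F3 library had the lowest TMM factor of the gonad small RNA libraries (0.8683). Which F3 library is atypical therefore cannot be told from these fits.

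**Figure D3:**
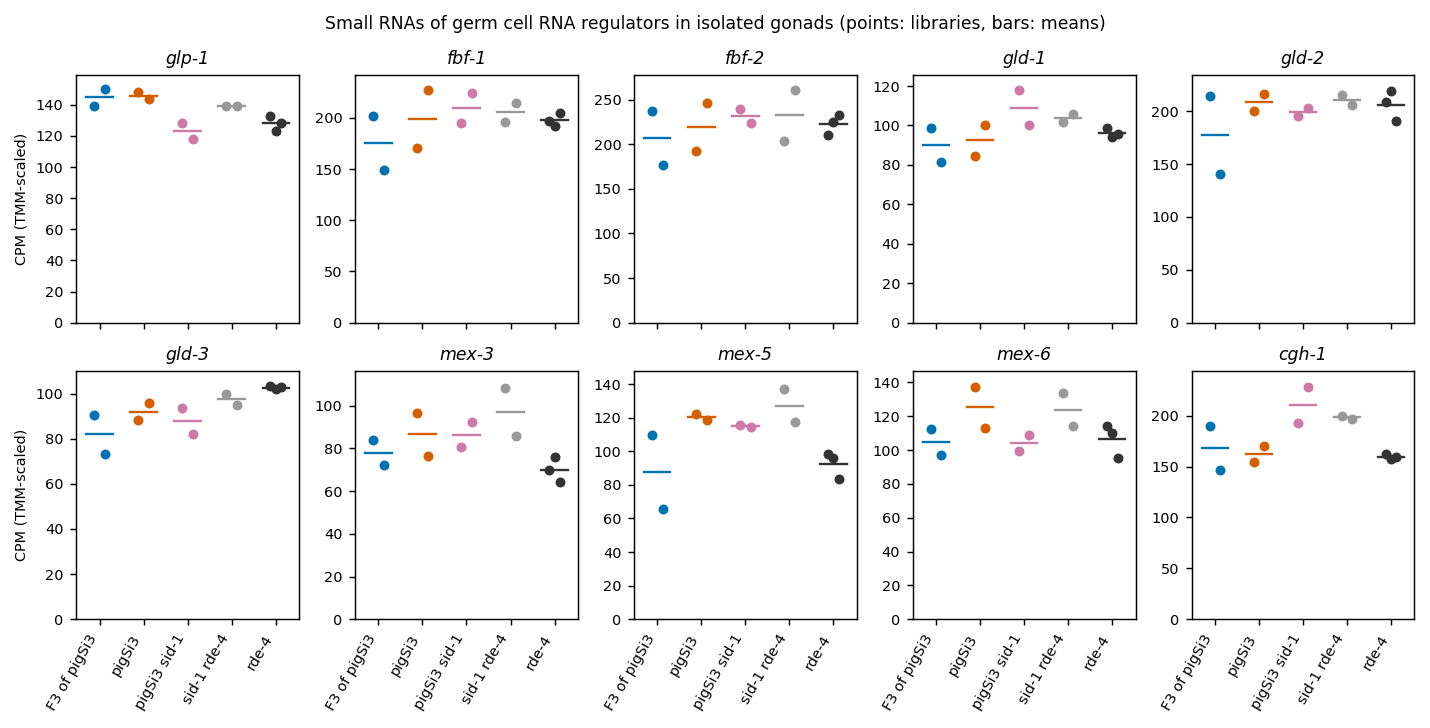
Small RNA level of each of the 10 genes in single gonad libraries (points, CPM; bars are means of 2 or 3 libraries), in the same order of groups as the mRNA plot. The 5 groups overlap for fbf-1, with all libraries between 149 and 227 CPM, and the rde-4 libraries of gld-3 lie close together between 102 and 103 CPM.

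Neuronal rde-4 gave no passing small RNA change on these genes either. In pigSi3 against rde-4 gonads 0 of 10 passed in edgeR or DESeq2 (0 unadjusted, 1.98% of all genes passed), with a median of 0.02 and values between -0.16 and 0.38. mex-5 had the highest value, with 122 and 118.6 CPM in pigSi3 gonads, against 98.3, 96.2 and 83.6 CPM in rde-4 gonads. Both pigSi3 libraries were higher (log2 0.38, 95% interval -0.02 to 0.77, adjusted p = 0.328), and mex-5 passed at 0.0468 in a fit that left out the F3 libraries. That fit called over 1.5 times as many of all genes in 4 of 8 gonad comparisons. Its share of all genes here is not given. glp-1 and mex-3 were also higher in every pigSi3 library, as were 21.8% of all genes, and gld-3 was lower in every one, as were 22.6% of all genes. In F3 against pigSi3 gonads 0 passed in edgeR or DESeq2 (1 unadjusted), beside 2.49% of all genes (24.7% unadjusted). Library totals moved the median of all genes there by -0.16 and the split to 141 higher and 77 lower in F3, against 225 higher and 62 lower with TMM. mex-5 had 110 and 65.8 CPM in F3 gonads, against 122 and 118.6 CPM in pigSi3 gonads (log2 -0.50, adjusted p = 0.169). It was 1 of 2 genes with every F3 library lower, as 20.8% of all genes were. Without F3 replicate 1, the log2 differences here were -0.575 for gld-2, -0.332 for gld-3 and -0.877 for mex-5, again on a single F3 library.

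Gonad small RNA on 9 of the 10 genes lay on the higher side in sid-1 rde-4 against rde-4 animals, without passing. The value below 0 was that of gld-3 (-0.075). The median of the 10 was 0.115, beside -0.01 for all genes. In sid-1 rde-4 against rde-4 gonads 0 of 10 passed in edgeR or DESeq2 (3 unadjusted), beside 3.31% of all genes (18.4% unadjusted). mex-3 had 108.5 and 85.9 CPM in sid-1 rde-4 gonads, against 70.0, 75.8 and 64.5 CPM in rde-4 gonads (log2 0.47, 95% interval 0.13 to 0.80, adjusted p = 0.129). cgh-1 had 199.5 and 197 CPM in sid-1 rde-4 gonads, against 162, 157.5 and 160 CPM in rde-4 gonads (log2 0.31, adjusted p = 0.253). Neither pair of groups overlapped, and in all 6 of the 10 genes had every sid-1 rde-4 library higher, as did 22.7% of all genes. mex-5 (0.45, adjusted p = 0.211) passed at 0.021 in a fit that left out the F3 libraries, whose share of all genes is not given. In pigSi3 sid-1 against sid-1 rde-4 gonads 0 passed in edgeR or DESeq2 (0 unadjusted, 0.573% of all genes), with 5 of the 10 genes lower in every pigSi3 sid-1 library, as were 20.3% of all genes. The difference between the pigSi3 effects with and without sid-1 passed for 0 genes in edgeR or DESeq2 (2 unadjusted), beside 1.37% of all genes (14.2% unadjusted). Its lowest values were those of mex-5 (-0.52, adjusted p = 0.424), mex-6 (-0.48, adjusted p = 0.332), mex-3 (-0.47, adjusted p = 0.383) and glp-1 (-0.37, adjusted p = 0.329).

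In whole animals at 20 °C, where wild-type animals were measured, the small RNA level of 6 of the 10 genes was higher in N2 than in rde-4 mutants and that of 0 was lower. There 31.4% of the 12800 genes tested passed, 14.5% higher and 16.9% lower. fbf-2 had 193, 224 and 247 CPM in N2, against 154, 175 and 182.5 CPM in rde-4 animals. gld-2 had 208, 223 and 256 CPM in N2, against 172, 174.5 and 193 CPM in rde-4 animals. gld-1 had 111, 91.8 and 103 CPM in N2, against 84.7, 73.0 and 86.0 CPM in rde-4 animals. In each of these all N2 libraries were higher, and the log2 differences were 0.38 (SE 0.131, adjusted p = 0.0489), 0.35 (SE 0.116, adjusted p = 0.0417) and 0.33 (SE 0.103, adjusted p = 0.0329) for fbf-2, gld-2 and gld-1 in that order. fbf-1 had 168, 195 and 191 CPM in N2, against 135, 155 and 148 CPM in rde-4 animals, also without overlap, at 0.34 (adjusted p = 0.0589). In this set of libraries the replicate numbers were taken to pair the samples, though the main fit was unpaired. With replicate number as a block fbf-1 passed (0.34, adjusted p = 0.00414).

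cgh-1 (0.64, SE 0.105, adjusted p = 0.00133), mex-5 (0.62, SE 0.128, adjusted p = 0.00498) and glp-1 (0.38, SE 0.0846, adjusted p = 0.00691) completed the 6. They passed in 12, 11 and 11 of 12 alternatives, while gld-1 passed in 7, gld-2 in 6 and fbf-2 in 5. The smaller differences therefore sit near the threshold, and the count of 6 became 2 with library totals (cgh-1, and gld-3 at -0.30, adjusted p = 0.0183), a scaling that moved the median of all genes by -0.25 and left 618 genes higher and 3886 lower in N2, against 1857 higher and 2159 lower with TMM. It became 3 without N2 replicate 3, without rde-4 replicate 1 or without rde-4 replicate 2, where 20.3% to 27.2% of all genes passed. mex-3 (0.10), mex-6 (0.01) and gld-3 (-0.05) did not pass. mex-6 had 105, 95.2 and 96.6 CPM in N2, against 110.1, 92.9 and 91.5 CPM in rde-4 animals, so it overlapped where its paralog mex-5 did not. In all, 7 of the 10 genes had every N2 library above every rde-4 library, as did 22.3% of all genes, and the median of the 10 was 0.34 beside 0.002 for all genes. With library totals it was 0.10 beside -0.25, and mex-3 and mex-6 turned to -0.14 and -0.24.

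The lists of related genes, which share some genes, were not tested as sets. They are given beside the 14.5% of all genes that were higher and the 16.9% that were lower in N2. Of 25 other regulators of stem cells and meiotic entry 14 were higher and 1 lower, among them gls-1, which encodes a partner of GLD-3 (0.52), and sygl-1 (0.46). Of 25 other genes of repression and decay complexes 11 were higher and 0 lower, of 18 oocyte and embryo regulators 4 were higher and 0 lower, and of 20 targets of GLD-1 or FBF 5 were higher and 0 lower. Among marker lists, 8 of 15 germline genes and 2 of 7 oocyte genes were higher in N2, while 3 of 12 sperm genes and 5 of 12 neuron genes were lower. Their part in the values of the 10 genes was not tested.

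**Figure D4:**
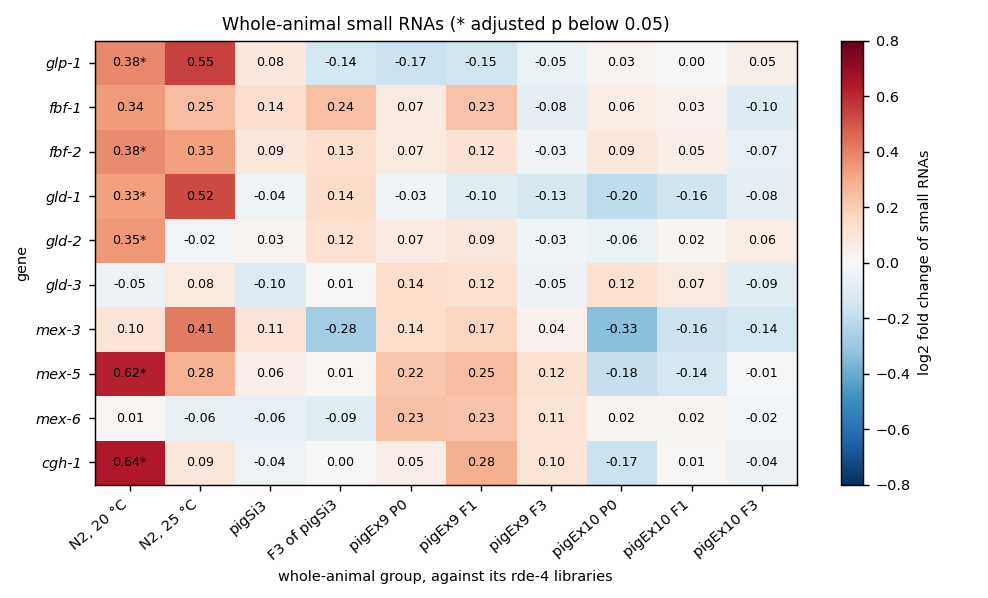
log2 change of small RNA for each of the 10 genes (rows) in whole-animal groups over their rde-4 libraries (columns), printed in each cell and shown by colour, red higher and blue lower; an asterisk marks an adjusted p below 0.05. All 6 asterisks are in the column of N2 at 20 °C, where cgh-1 is at 0.64 and mex-5 at 0.62, and the cgh-1 value of pigSi3 animals is -0.04.

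Whole pigSi3 animals gave no passing small RNA change on these genes. In pigSi3 against rde-4 animals 0 of 10 genes passed in edgeR or DESeq2 (0 unadjusted, 5.86% of all genes passed), and the log2 values ran between -0.10 and 0.14. With replicate number as a block 1554 genes passed in place of 750, again with 0 of the 10 among them. cgh-1 had 132, 136 and 147 CPM in pigSi3 animals, against 155, 124 and 147 CPM in rde-4 animals, and mex-5 had 101, 89.1 and 98.2 CPM in pigSi3 animals, against 109, 77.1 and 91.0 CPM in rde-4 animals. Both overlapped. The 95% intervals of pigSi3 over rde-4 reached 0.19 for cgh-1 and 0.34 for mex-5, below the N2 values of these genes. Both comparisons share the rde-4 libraries. fbf-1, with 136.5, 158.6 and 185.8 CPM in pigSi3 animals, overlapped with the rde-4 and with the N2 libraries, so an N2-sized change is not excluded for it. glp-1 was slightly higher and gld-3 slightly lower in every pigSi3 library than in every rde-4 library. The share of all genes doing so is not given here.

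At 25 °C the N2 difference passed for 0 of 10 genes in edgeR (3 unadjusted), beside 16.5% of all genes (31.2% unadjusted). In DESeq2 it passed for 1, glp-1 (adjusted p = 0.0352), and the DESeq2 share of all genes is not given here. glp-1 had 101, 107 and 80.1 CPM in N2, against 58.5, 72.1 and 65.8 CPM in rde-4 animals (log2 0.55, 95% interval 0.16 to 0.94, adjusted p = 0.0634). gld-1 had 93.5, 69.7 and 98.0 CPM in N2, against 64.3, 60.7 and 57.2 CPM in rde-4 animals (log2 0.52, adjusted p = 0.0766). mex-3 (0.41, adjusted p = 0.121) and mex-5 (0.28, adjusted p = 0.314) also had every N2 library higher, which made 4 of the 10, beside 17.9% of all genes. The difference of the N2 effects at 25 °C and 20 °C passed for 0 genes in edgeR (2 unadjusted), beside 4.02% of all genes (18.5% unadjusted). It was -0.45 for cgh-1 (95% interval -0.82 to -0.09, adjusted p = 0.165), which passed in DESeq2 (-0.49, adjusted p = 0.0225), and 0.40 for mex-3 (adjusted p = 0.186). The temperatures were measured in different sets of records, so temperature and set cannot be told apart.

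Carriers of the extrachromosomal arrays and their descendants gave no passing change on any of the 10 genes. For pigEx9, 0 of 10 passed in P0 (1 unadjusted; 6.78% of all genes passed), in F1 (0 unadjusted; 0.176%) and in F3 (0 unadjusted; 0.0557%), in edgeR as in DESeq2, with medians of 0.07, 0.15 and -0.03. For pigEx10, 0 of 10 passed in P0 (1 unadjusted; 1.80%), in F1 (1 unadjusted; 0.355%) and in F3 (0 unadjusted; 0.355%), again in both tools, with medians of -0.02, 0.02 and -0.06. gld-1 was lower than in every rde-4 library of its set in all 3 pigEx10 generations, at -0.20 in P0 (adjusted p = 0.298), -0.16 in F1 and -0.08 in F3, and these share the same 3 rde-4 libraries. mex-3 was at -0.33 in pigEx10 P0 (95% interval -0.67 to 0.01). Of all genes, 9.70% lay below every rde-4 library in pigEx10 P0, 5.29% in F1 and 5.70% in F3. At an unadjusted p below 0.05 were 18.4% of all genes in pigEx9 P0, 11.5% in pigEx10 P0 and 5.83% in pigEx10 F1. glp-1 lay below every rde-4 library of record sets 2 and 3 in pigEx9 P0 (-0.17, adjusted p = 0.384), as did 1.44% of all genes. pigEx9 F1 replicate 3 held 1792 gene counts, where 1 count is worth 558 CPM before scaling, and 7 of the 10 genes were at 0 in it.

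Whole F3 animals of the pigSi3 line had no rde-4 libraries in their own set and were set against all 11 rde-4 libraries at 20 °C. There 0 of 10 passed in edgeR or DESeq2 (0 unadjusted, 0.0172% of all genes), with log2 values between -0.28 (mex-3) and 0.24 (fbf-1). fbf-1 small RNA came to 177, 184 and 130.1 CPM in F3 animals, against 102 to 166 CPM in rde-4 animals, so the groups overlapped. The rde-4 level itself differed between sets of records. For fbf-1 it averaged 115 to 153 CPM over the 4 sets, for gld-2 130 to 188.5 CPM, and for mex-5 69.7 to 96.7 CPM.

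Isolated neurons held little of these mRNAs. In rde-4 animals the neuron level, in CPM before scaling, was 0.434% of the gonad level for fbf-1, 0.576% for fbf-2, 0.999% for gld-1 and 1.58% for glp-1. It was highest for mex-3, at 5.83%, and cgh-1, at 2.16%, with cgh-1 at 71.5 CPM in neurons and 3313 CPM in gonads. Germline markers summed to 91.1 to 274 CPM in WT neurons, 51.2 to 74.1 CPM in pigSi3 neurons and 112 to 457 CPM in rde-4 neurons, so some germline RNA was counted in each group, and its part in the values below was not tested.

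In WT against rde-4 neurons 0 of 10 mRNAs passed in edgeR (4 unadjusted), beside 0.433% of all genes (16.8% unadjusted). In DESeq2 2 of the 10 passed, and DESeq2 called many times as many of all genes here (numbers in the closing section). The median of the 10 was 0.89 beside 0.17 for all genes, and library totals moved the median of all genes by 0.33 and the split to 40 higher and 24 lower, against 23 higher and 32 lower with TMM. glp-1 had 21.6, 8.66, 12.0 and 4.45 CPM in WT neurons, against 2.95, 3.55, 3.17 and 3.83 CPM in rde-4 neurons. mex-6 had 11.1, 9.37, 16.9 and 6.79 CPM in WT neurons, against 4.55, 1.89, 6.57 and 4.84 CPM in rde-4 neurons. These were the 2 genes with every WT library higher, as were 2.73% of all genes, with log2 differences of 1.79 for glp-1 (adjusted p = 0.149; DESeq2 1.84, adjusted p = 0.0201) and 1.31 for mex-6 (adjusted p = 0.19; DESeq2 1.35, adjusted p = 0.0485). In pigSi3 against rde-4 neurons 0 passed in edgeR or DESeq2 (2 unadjusted), beside 0.0236% of all genes (8.81% unadjusted). mex-5 had 4.66, 3.42, 3.05 and 2.06 CPM in pigSi3 neurons, against 8.86, 8.21, 11.2 and 9.58 CPM in rde-4 neurons (log2 -1.52, 95% interval -2.50 to -0.55, adjusted p = 0.361). mex-5 and glp-1 were lower in every pigSi3 library, as were 6.38% of all genes. Of 10 log2 values 8 were negative, with a median of -0.68 beside -0.04 for all genes. The summed germline markers were lower in every pigSi3 library too. Those sums overlapped between WT and rde-4 neurons, where 9 of the 10 log2 values were positive.

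Neuron small RNA on the 10 genes passed for 0 genes in WT (2 unadjusted) and for 0 in pigSi3 neurons (0 unadjusted), in edgeR and DESeq2 alike. Of all genes 3.34% (14.5% unadjusted) passed in WT and 0.955% (6.49% unadjusted) in pigSi3 neurons. fbf-1 had 124 and 141 CPM in WT neurons, against 107 and 76.7 CPM in rde-4 neurons (log2 0.51, adjusted p = 0.32). cgh-1 had 144 and 176 CPM in WT neurons, against 123 and 105 CPM in rde-4 neurons (log2 0.48, adjusted p = 0.282). They were among 5 of the 10 genes with both WT libraries higher, as were 22.6% of all genes.

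**Figure D5:**
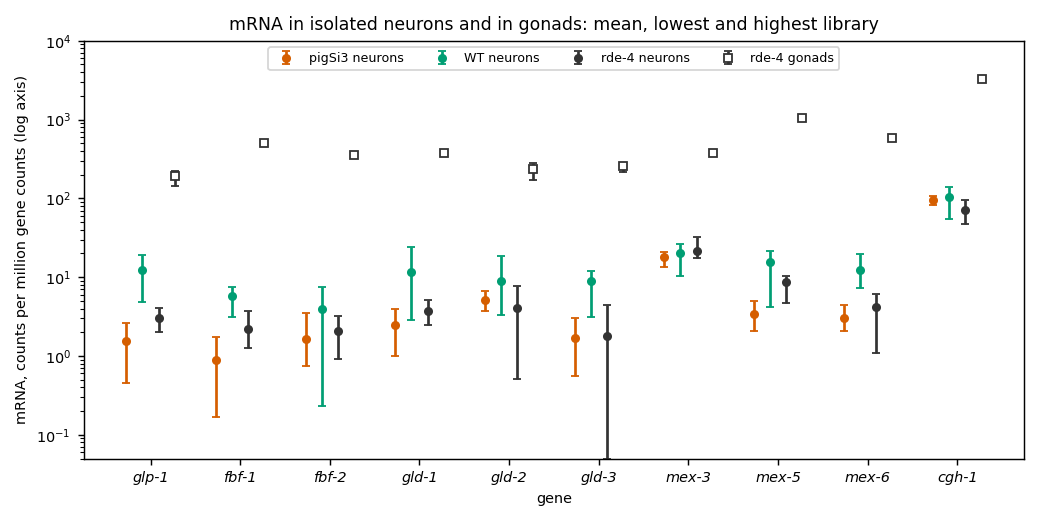
mRNA level of each of the 10 genes in neurons (filled circles: pigSi3, WT and rde-4) and, to their right, in rde-4 gonads (open squares), in CPM before scaling on a log axis; points are means and bars span the lowest and the highest library. The gonad value lies above every neuron library for each gene, and 1 rde-4 neuron library of gld-3 is at 0, where its bar runs to the bottom of the axis.

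Over the 15 gonad mRNA libraries, cgh-1 (Pearson r = 0.969), fbf-1 (0.932), fbf-2 (0.925) and mex-5 (0.906) lay nearest to the mean log2 profile of the 10 genes, and mex-3 farthest (-0.263). Among the other 7391 genes compared, phf-15 (0.984), npp-8, hmr-1, hpo-27 and helq-1 (each 0.982) were nearest to that mean. Over the 11 gonad small RNA libraries mex-5 (0.955) and gld-2 (0.863) were nearest and glp-1 farthest (-0.211), and of 7974 genes sop-3 (0.981), exos-9 (0.978), ril-2, Y71F9AL.17 (each 0.974) and coh-4 (0.973) were nearest. These values are descriptions: the libraries share groups, and each profile shares its library's depth.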

How the data were processed

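The deposited tables hold read counts per gene, 1 table per library, taken as raw counts because all values are whole numbers. Per the labels, TRIZOL was used for RNA, NEBNext or TruSeq kits for libraries of small RNA and Nextera XT for mRNA. Per the submitters' processing notes the authors used cutadapt, FastQC, HTSeq and DESeq2 with build ce10; the sources used here give no version, aligner, annotation or counting strand. Libraries with mRNA in the title were taken as mRNA and the others as small RNA. Lines for reads outside genes were left out of totals. The test was edgeR's robust quasi-likelihood F test (edgeR 4.0.16, R 4.3.3) after TMM scaling and filterByExpr, with Benjamini-Hochberg adjustment over all genes tested, a threshold of 0.05 and 95% intervals from the t distribution; DESeq2 1.42.0 was an alternative. Groups of a tissue were fitted together. Whole-animal libraries were compared within sets of records, inferred from how the records are listed. In 1 set same-numbered libraries deviated together (correlations of 0.150 to 0.390), so those numbers were taken to pair the samples. This rests on a cutoff that every same-numbered correlation had to pass. F3 against pigSi3 gonad mRNA, at 0.04 to 0.44, missed it. The main fits were unpaired in every set. Standard errors and intervals cover counting error and the spread between libraries. Further genes are named by a rule: up to 4 per list with the smallest adjusted p below 0.05, and the 5 genes with profiles most like the members' mean (log2 of CPM + 0.5, mean of at least 5 CPM). The 10 genes, the lists and the alternatives were chosen with earlier results of these data known. Scripts were tested on simulated counts.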

Additional observations from a re-analysis of the deposited data

Results flagged for a closer look

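Over 40 groups of 4 to 10 libraries in which a gene of the 10 was measured, 2 held a library far from the others of its group by Dixon's criterion, and chance gives about 1 in 20. mex-3 mRNA stood at 56.17 CPM in rde-4 neuron replicate 2, while the other 3 rde-4 neuron libraries lay between 17.64 and 18.71 CPM. That library had a TMM factor of 0.5719, which raises all its levels, and before scaling its mex-3 level was 32.09 CPM. fbf-1 mRNA stood at 2.863 CPM in WT neuron replicate 4, while the other 3 WT neuron libraries lay between 5.713 and 6.252 CPM. Both are in neurons, where these mRNAs are low, and neither gene passed in a neuron comparison.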

How the results depend on the processing

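Of 334 recomputed counts of the 10 genes called in a comparison 14 moved by over 1.5 times, and of 3340 recomputed single values 38 lost a call, 26 gained one and 0 called values changed sign. In gonad small RNA, a fit without the F3 libraries, added after the data were seen, called 1 gene (mex-5) in pigSi3 against rde-4 and 1 (mex-5) in sid-1 rde-4 against rde-4. That setting called over 1.5 times as many of all genes in 4 of 8 gonad comparisons. Leaving out single libraries gave 0 to 3 genes in F3 against rde-4 and 0 to 3 in F3 against pigSi3 gonads, 3 to 5 in 20 °C whole animals (N2 against rde-4), 0 to 1 in those at 25 °C and 0 to 1 in WT against rde-4 neuron mRNA, where glp-1 passed without WT replicate 4 (2.03, adjusted p = 0.035). Over all genes the same fits called 0 to 3997, 23 to 4010, 2657 to 3589, 815 to 2084 and 14 to 825, where all libraries gave 19, 287, 4016, 1738 and 55; the counts of 3997 and 4010 are those without F3 replicate 1, and that of 825 the one without WT replicate 4 (6.16% of genes tested). The F3 values with 3 genes rest on a single F3 library, replicate 2, whose spread is assumed to be that of the other groups. Library totals called 2 in the 20 °C animals. DESeq2 called 1 in the 25 °C animals, 1 in the difference between the temperatures and 2 in WT against rde-4 neuron mRNA. Record set 2 alone called 1 in pigEx9 P0 (mex-6, 0.54, adjusted p = 0.0368), and it called over 1.5 times as many of all genes in all 3 of its comparisons. The causes of these changes were not tested.

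Over all genes, DESeq2 moved the count of calls by over 1.5 times in 19 of 27 comparisons, always to more genes, for example 807 beside 55 in WT against rde-4 neuron mRNA and 426 beside 19 in F3 against rde-4 gonad small RNA. Testing without a filter on low counts gave more in 10 of 27. With replicate number as a block the count moved in 9 of 19, to fewer genes in 8. In F3 against pigSi3 gonad small RNA it was 93 beside 287 with labelled numbers and 70 with crossed numbers, and in pigSi3 sid-1 against sid-1 rde-4 it was 41 beside 66 with either; 0 of the 10 genes passed in any of these. The numbers met the cutoff for pairing in the 20 °C set of N2, pigSi3 and rde-4 alone. There the block changed the call of fbf-1 in N2 and no other call of the 10. No paired analysis was possible for pigEx9, pigEx10 or the whole F3 animals because their libraries share fewer than 2 numbers with the rde-4 libraries of the same set.

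Depth limits pigEx9 F1 replicate 3, with 1792 counts. With 2 libraries per gonad small RNA group (3 for rde-4), the widest 95% interval of the 10 genes in a comparison of 2 groups was -0.95 to -0.05 (mex-5, F3 against pigSi3), and in the difference of the pigSi3 effects -1.11 to 0.08 (mex-5).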
